A study of Homo sapiens with 12 samples.

Results

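ATPAF1, ATPAF2, TMEM70 and FMC1 encode assembly factors of the mitochondrial ATP synthase, and their transcripts were followed in Ramos cells, a line of human B cells grown out of a Burkitt lymphoma, with and without induced microRNA-28. These 4 genes are the members of the group that the deposited table holds, of 12725 genes in all, and all 4 had values in every library. The members were chosen by the fold change and p-value of ATPAF1, which stood among the lowest p-values when miR-28 was compared with scramble, so their values in that comparison are a description and serve as support for nothing. Polyadenylated RNA was sequenced from 12 libraries, as 6 pairs that each join 1 miR-28 library with 1 scramble library.

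In the 6 miR-28 libraries the cells carried miR-28 in pTRIPZ, a lentiviral vector that is switched on by doxycycline, and in the 6 scramble libraries they carried the same vector with a scrambled sequence. Both groups had been selected with 0.4 µg/ml puromycin, had received 0.5 µg/ml doxycycline for 2 days and had been sorted as cells positive for RFP, the red marker of pTRIPZ, so that no library came from uninduced cells. Library batch 1 held pairs 1, 2 and 3, and batch 2 held pairs 4, 5 and 6. In the transduction label, pairs 1, 4 and 5 carry XENO 1, pairs 2 and 6 carry XENO 2 and pair 3 has no number, and what XENO stands for is not given. All libraries came from 1 cell line, and nothing says that pairs were separate cultures, so that p-values measure the spread between these samples only.

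The ATP synthase makes ATP from the proton gradient across the inner mitochondrial membrane, with a catalytic F1 head in the matrix and a rotating ring in the membrane. Its subunits are made separately and are joined with the help of other proteins. ATPAF1, the counterpart of yeast Atp11, binds the free beta subunit of F1, and ATPAF2, the counterpart of Atp12, binds the free alpha subunit. FMC1 is known from yeast as a partner that keeps Atp12 working at high temperature. TMEM70 sits in the inner membrane and helps subunit c to form the ring, and its loss in people is a cause of ATP synthase deficiency.

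Values are CPM, reads relative to the depth of their library after TMM scaling, from 15404730 to 37876636 reads per library. All 8 listed B cell markers were measured, with summed levels of 3154 to 4795 CPM in miR-28 and 2755 to 4625 CPM in scramble libraries, while 0 of 7 T cell, 0 of 5 myeloid and 0 of 6 epithelial or fibroblast markers were in the table. MIR28 had reads in 6 of 6 miR-28 libraries, 304 in all, against 0 reads in the 6 scramble libraries. The first principal component over all genes held 67.6% of the variance and divided pairs 3, 4 and 6 from pairs 1, 2 and 5, a division that follows neither batch nor XENO. Transcripts of the mitochondrial genome took 3.43% of reads in the miR-28 library and 7.45% in the scramble library of pair 3, against 1.19% to 2.88% in the other 10 libraries. This share was lower in the miR-28 library of all 6 pairs, at 1.46% against 1.88% in scramble in pair 1, 1.91% against 2.38% in pair 2, 2.62% against 2.88% in pair 4, 1.19% against 1.54% in pair 5 and 1.62% against 2.18% in pair 6.

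ATPAF1 was the member whose miR-28 and scramble libraries stood apart. ATPAF1 (ENSG00000123472, GRCh38 chromosome 1, 46632737 to 46673867, minus strand) measured 26.0, 29.4, 22.01, 27.1, 25.7 and 25.3 CPM in the miR-28 libraries of pairs 1 to 6. In the scramble libraries of pairs 1 to 6, ATPAF1 measured 34.98, 40.7, 31.6, 36.3, 32.9 and 39.7 CPM. The highest miR-28 library, at 29.4 CPM, lay below the lowest scramble library, at 31.6 CPM, so the groups did not overlap. The means were 25.9 ± 2.43 CPM in miR-28 and 36.0 ± 3.63 CPM in scramble libraries (SD, n = 6 each). These values rest on 496 to 1472 reads of ATPAF1 per library, for which counting alone gives a relative error of 2.61% to 4.49%.

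Within pairs, the miR-28 level of ATPAF1 was 0.637 of the scramble level in pair 6, where it was lowest, and 0.781 in pair 5, where it was highest. The remaining ratios of ATPAF1 were 0.744 in pair 1, 0.722 in pair 2, 0.696 in pair 3 and 0.748 in pair 4. All 6 ratios were thus below 1, over a narrow range. The log2 fold change of ATPAF1, on the scale of log2(CPM + 1), was -0.46, or -0.45 without pair 3 and -0.41 without pairs 3 and 6. Over all pairs its SE was 0.115 with library batch as a term and 0.0729 with the pair as a block. Of the 12725 genes 117 had a fold change as low or lower, and 21 of them were also lower in 6 of 6 pairs. Among the 10388 genes with a mean of 5 CPM or more, 64 were as low.

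The other members overlapped between groups. ATPAF2 (ENSG00000171953, chromosome 17, 17977409 to 18039209, minus strand) measured 11.05, 11.3, 8.29, 6.54, 13.6 and 10.6 CPM in the miR-28 libraries of pairs 1 to 6. In the scramble libraries of pairs 1 to 6, ATPAF2 measured 13.2, 11.3, 11.2, 8.98, 13.01 and 8.13 CPM. ATPAF2 was lower in 4 pairs and higher in 2, and its pairs ran in opposite directions, with a miR-28 level of 0.728 of scramble in pair 4 and 1.31 in pair 6. The log2 fold change of ATPAF2 was -0.11, smaller than its spread between pairs. Its SE was 0.187 with batch as a term and 0.120 with the pair as a block. The scramble library of pair 6 held 135 reads of ATPAF2, the fewest of any member, with a counting error of 8.61%.

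TMEM70 (ENSG00000175606, chromosome 8, 73972437 to 73982783, plus strand) measured 37.8, 39.2, 21.5, 23.6, 40.6 and 21.7 CPM in the miR-28 libraries of pairs 1 to 6. In the scramble libraries of pairs 1 to 6, TMEM70 measured 36.7, 33.6, 17.2, 27.0, 40.9 and 19.99 CPM. The level of TMEM70 followed the pair and not the vector, with both libraries low in pairs 3, 4 and 6 and both high in pairs 1, 2 and 5. On the log2 scale the fold change of TMEM70 was 0.08, higher in 4 pairs and lower in 2. Its SE was 0.259 with batch as a term and 0.0845 with the pair as a block. FMC1 (ENSG00000164898, chromosome 7, 139339457 to 139346319, plus strand) measured 9.28, 7.93, 10.3, 7.47, 7.81 and 8.61 CPM in the miR-28 libraries and 8.41, 8.30, 10.3, 7.33, 9.44 and 9.15 CPM in the scramble libraries of pairs 1 to 6. Over both groups together FMC1 had the narrowest range of the 4 members, with a highest library at 1.41 times its lowest. On this measure ATPAF1 had 1.85, which includes its difference between the groups. On the log2 scale its fold change was -0.04, with an SE of 0.131 with batch as a term and 0.0932 with the pair as a block.

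**Figure D1:**
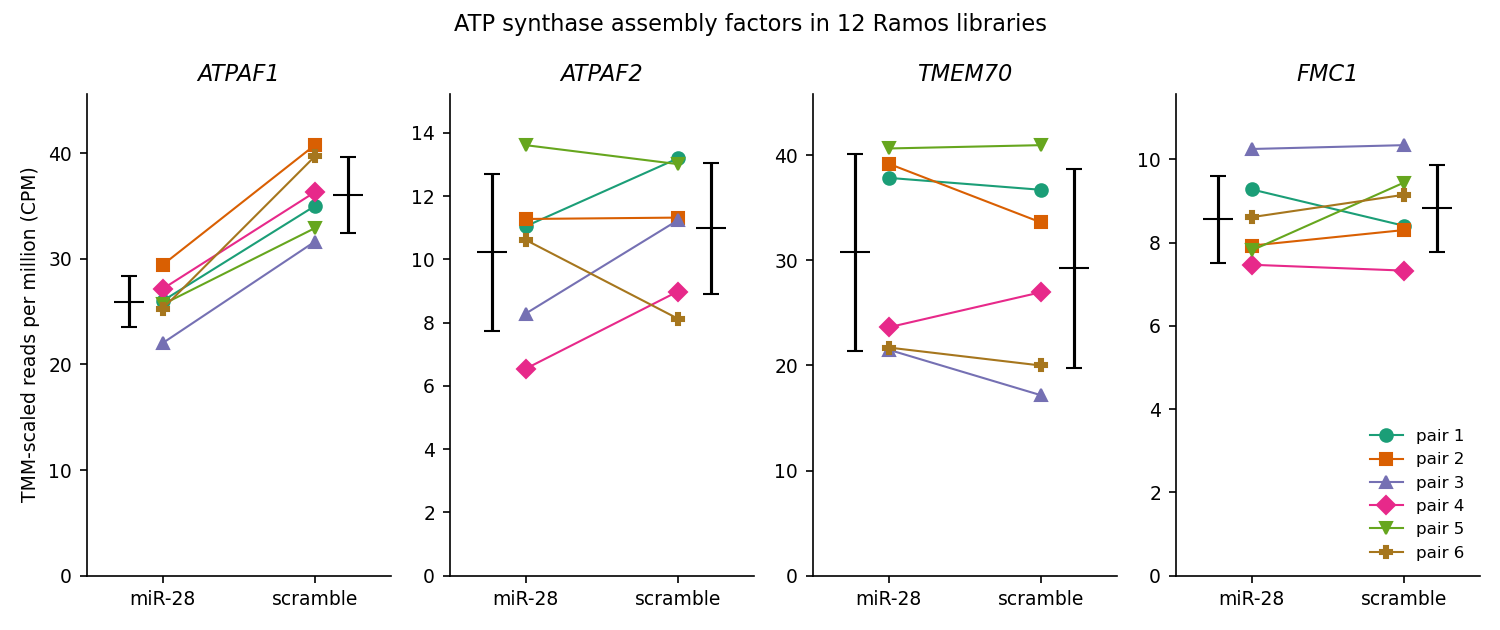
Level of each assembly factor in CPM (linear axis from 0) in the 6 miR-28 and the 6 scramble libraries, with a line joining both libraries of a pair and a bar for the mean and SD of each group. ATPAF1 lies between 22.01 and 29.4 CPM in miR-28 and between 31.6 and 40.7 CPM in scramble libraries, while the groups overlap for ATPAF2, TMEM70 and FMC1.

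Of the 4 members 1, ATPAF1, did not overlap between groups, on the lower side, where 0.0472% of the 12725 genes did so. The 6 such genes were SPCS3, a subunit of the signal peptidase, ATPAF1, AIFM2, an NADH-dependent oxidoreductase, CROT, a peroxisomal carnitine acyltransferase, B3GNT7, a glycosyltransferase, and GHDC. ATPAF1 was also the 1 member lower in 6 of 6 pairs, where 2.19% of all genes were. In limma on log2(CPM + 1) with library batch as a term, 0 of 4 members had a Benjamini-Hochberg adjusted p under 0.05, where 0.0157% of genes did, and with the pair as a replicate block 0 of 4 did, where 0.0236% of genes did. ATPAF1 had an adjusted p of 1 in the first limma fit and 0.297 with the block, and it was the 1 member with an unadjusted p under 0.05, as 42 of the 12725 genes had in the first fit and 929 with the block. Since this comparison chose the members, nothing is read from these counts. In bulk RNA, fewer cells with a transcript and less of it per cell cannot be told apart.

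The contrasts of batch and XENO, which had no part in the choice, gave no difference past the threshold for any member, which does not show that levels were equal. Batch 2 against batch 1 was tested with limma on the mean of both libraries of each pair. ATPAF1 averaged 31.2 ± 1.67 CPM in batch 2 and 30.8 ± 4.14 CPM in batch 1 (SD over 3 pairs each), a log2 difference of 0.02 with an SE of 0.192. The log2 difference was -0.14 (SE 0.267) for ATPAF2, -0.09 (SE 0.357) for TMEM70 and -0.12 (SE 0.223) for FMC1. In this limma fit 0 of 4 members passed, as did 0% of all genes, with 6 genes at an unadjusted p under 0.05.

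XENO 2 was compared with XENO 1 in the same way over 5 pairs, with batch as a term. TMEM70 averaged 28.6 ± 10.99 CPM in XENO 2 (SD over 2 pairs) and 34.4 ± 8.13 CPM in XENO 1 (SD over 3 pairs), a log2 difference of -0.36 with an SE of 0.320. ATPAF1 had 33.8 ± 1.84 CPM in XENO 2 and 30.5 ± 1.22 CPM in XENO 1, a log2 difference of 0.12 with an SE of 0.226. The differences of ATPAF2, at -0.10 (SE 0.330), and FMC1, at 0.03 (SE 0.270), were within their errors. In limma 0 of 4 members passed, as did 0% of all genes, with 283 genes at an unadjusted p under 0.05. The pair with no number was low in TMEM70, at 19.3 CPM, and high in FMC1, at 10.3 CPM, on average over both of its libraries.

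The ATPAF1 difference was -0.46 in batch 2 and -0.46 in batch 1 on the log2 scale, and the interaction term, batch 2 minus batch 1, was -0.0030 with an SE of 0.247. A low p in the comparison that chose ATPAF1 goes with a small spread around the group difference, batches included, so this value of ATPAF1 is a description and not an independent test. For ATPAF2 the interaction was 0.21 (SE 0.392), for TMEM70 -0.22 (SE 0.541) and for FMC1 -0.12 (SE 0.281). In limma 0 of 4 members passed in this term, as did 0% of all genes, with 9 genes at an unadjusted p under 0.05.

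The 3′ UTR of ATPAF1 held letters that match miR-28, and they are shown because ATPAF1 is the member that stood apart. A microRNA pairs with transcripts mostly through its seed, at bases 2 to 8, and the miR-28 hairpin yields an arm named miR-28-5p and an arm named miR-28-3p that lie opposite each other in it. The longest annotated 3′ UTR of ATPAF1 has 3039 bases, in transcript ATPAF1-214, and holds 1 match to AGCTCCT, the complement of the miR-28-5p seed, at base 2926, which is 96.3% of the way along. It was searched on the transcript strand only and stands in 1 of the 9 coding transcripts with an annotated 3′ UTR. This motif was present in 15.5% of all 3′ UTRs and in 23.8% of the 1574 of a length like that of ATPAF1. A further match to the shorter core GCTCCT, which AGCTCCT contains, lies at base 1484 of the same 3′ UTR, and 51.2% of the 3′ UTRs of like length held at least 1. The letters around both matches are given with the matches in capitals, from GENCODE release 29 on GRCh38, as chr1:46632834-46632863 and chr1:46634276-46634305 on the minus strand.
ATPAF1 AGCTCCT match: ccactagactgtgAGCTCCTtgagggccag
ATPAF1 GCTCCT match: gctccactctgctGCTCCTgcctaagatct

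None of the other members held AGCTCCT, while TMEM70 held GCTCCT as often as ATPAF1 did, in a shorter 3′ UTR. The longest 3′ UTRs of ATPAF2 (539 bases) and FMC1 (615 bases) had 0 matches to AGCTCCT or GCTCCT, and that of TMEM70 (1162 bases) had 0 to AGCTCCT and 2 to GCTCCT. For miR-28-3p, the complement of its seed, ATCTAGT, had 0 matches in all 4 members. Its core TCTAGT had 0 matches in them either. Of 3′ UTRs as long as that of ATPAF1, 12.5% held ATCTAGT. Client genes of the members held such letters as well. The longest 3′ UTR of ATP5F1A, of 4034 bases, had 1 match to AGCTCCT, at base 1437, and the log2 fold change of ATP5F1A was 0.07. That match stands in 1 of its 4 coding transcripts with an annotated 3′ UTR. The same 3′ UTR also had 1 match to TCTAGTA, a further form of the miR-28-3p motif that had 0 matches in the 4 members. This form was present in 4 of the 4 transcripts of ATP5F1A. The longest 3′ UTR of ATP5MC3, of 2030 bases, had 1 match to ATCTAGT, in 1 of 3 transcripts, and the log2 fold change of ATP5MC3 was 0.04. Which of these transcripts the cells made was not examined. A match is a description of the letters, not a site of binding.

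The letters around the AGCTCCT match of ATPAF1 were also like miR-28-3p itself, read in the same direction. This is likeness to the letters of miR-28-3p, not to their complement. Across the 22 bases from base 2914 of the 3′ UTR (chr1:46632841-46632862, minus strand), 20 were equal to miR-28-3p read as DNA, the arm that lies opposite miR-28-5p. The differences were T8C and G20T, counted from 1 at the 5′ end of miR-28-3p, with the base of the microRNA first. Of 10760 measured genes with a 3′ UTR at least as long as miR-28-3p, ATPAF1 was the 1 gene with 20 or more equal bases in its best window, or 0.00929%. The best windows of ATPAF2, TMEM70 and FMC1 had 12, 11 and 12 equal bases, and 86.7%, 96.5% and 86.7% of these genes had a window at least as like. miR-28 has been described as derived from a LINE-2 repeat, an old mobile element with copies across the genome.

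Another 4 genes had 19 equal bases, TP53BP1, SON, E2F6 and KPNA4, and all 5 windows held AGCTCCT, shown in capitals. They lie at chr1:46632841-46632862 in ATPAF1, chr15:43403143-43403164 in TP53BP1, chr21:33558916-33558937 in SON, chr2:11445382-11445403 in E2F6 and chr3:160495096-160495117 in KPNA4, on the plus strand for SON and the minus strand for the others. miR-28-3p itself is from RefSeq on GRCh38.p14, with its seed in capitals.
hsa-miR-28-3p: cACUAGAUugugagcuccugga
ATPAF1: cactagactgtgAGCTCCTtga
TP53BP1: aactagattgtgAGCTCCTtaa
SON: tactagattgtaAGCTCCTtga
E2F6: cattagactgtgAGCTCCTtga
KPNA4: cactagattgtaAGCTCCTtaa

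The 5 genes did not share a fold change. E2F6, a transcriptional repressor that earlier work names as a target of miR-28, measured 17.9 CPM in miR-28 and 22.5 CPM in scramble libraries on average and was lower in 6 of 6 pairs, at a log2 fold change of -0.30 (SE 0.129). SON, a splicing cofactor, was at -0.16 (SE 0.177) and at -0.03 without pair 3. KPNA4, a nuclear import receptor, was at -0.03 (SE 0.119), and TP53BP1, of the DNA damage response, was at 0.02 (SE 0.0998). ATPAF1 and E2F6 were thus the 2 of these 5 that were lower in every pair, and none of the 5 passed in either limma fit.

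Taking 18 or more equal bases gave 17 genes, with a median log2 fold change of -0.08 and 13 of them below 0, against a median of -0.0062 and 51.8% below 0 over all 10760 genes. Of the 17, ATPAF1, E2F6 and TEX261 were lower in 6 of 6 pairs, or 17.6%, against 2.11% of the 10760. Without pair 3 the median of the 17 was -0.05 and 11 were below 0. Their 3′ UTRs were longer, with a median of 4019 bases against 1360.5 over all. Against the reverse complement of miR-28-3p, 3 genes had 18 or more equal bases, with a median log2 fold change of -0.02. At lower numbers of equal bases the distance between the microRNA and its reverse complement depended on the measure. Lower in 6 of 6 pairs were 12.5% of genes for miR-28-3p and 0% for the reverse complement with 17 or more equal bases. With 16 or more these shares were 5.30% and 1.11%, and with 15 or more 2.58% and 2.01%. The share below 0 with 16 or more was 62.3% for miR-28-3p and 56.7% for the reverse complement. With 17 or more, 32 of 48 genes (66.7%) were below 0 for miR-28-3p and 17 of 27 (63.0%) for the reverse complement. With 15 or more, 53.0% of 621 genes were below 0 for miR-28-3p and 56.2% of 548 for the reverse complement. The list of 17 was chosen after values had been seen and includes ATPAF1 itself, so no test was made, and the part of 3′ UTR length was not tested. The sets for miR-28-3p with 17, 16 or 15 or more equal bases each contain these 17 genes. Their genes lower in 6 of 6 pairs, 6, 8 and 16 in number, thus include ATPAF1, E2F6 and TEX261. No conclusion is drawn from these shares.

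**Figure D2:**
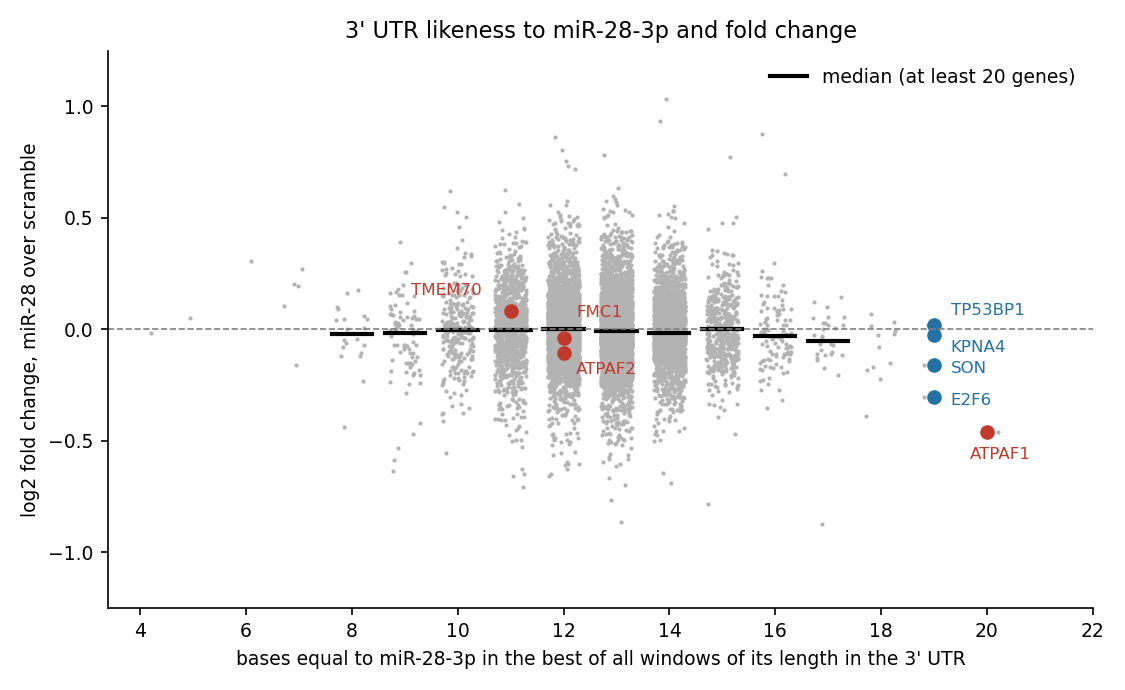
Log2 fold change of miR-28 over scramble (vertical axis) against the number of bases equal to miR-28-3p in the best window of the 3′ UTR (horizontal axis), 1 point for each of 10760 genes with sideways scatter, and a bar for the median wherever at least 20 genes share a number. ATPAF1 stands alone at 20 equal bases with a log2 fold change of -0.46, while the other assembly factors have 11 or 12.

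The subunits that the assembly factors bind did not stand apart between the groups. ATP5F1B, the beta subunit that ATPAF1 binds, averaged 966.1 ± 312 CPM in miR-28 and 960.0 ± 261 CPM in scramble libraries (SD, n = 6 each), with a log2 difference of -0.0080 (SE 0.257). ATP5F1A, the alpha subunit that ATPAF2 binds, averaged 944.9 ± 253 CPM in miR-28 and 909.0 ± 274 CPM in scramble libraries, with a log2 difference of 0.07 (SE 0.249). Of the 3 genes for subunit c, the client of TMEM70, ATP5MC1 had 109.8 ± 71.3 CPM in miR-28 and 110.6 ± 60.8 CPM in scramble libraries. ATP5MC2 had 206.2 ± 31.5 and ATP5MC3 246.1 ± 89.8 CPM in miR-28, against 193.6 ± 22.96 and 238.3 ± 83.4 CPM in scramble libraries. In all 5 client genes the difference between the group means was smaller than the SD within either group. These SDs include the spread between pairs, so they are a wide measure for paired libraries. Within pairs, the miR-28 level of ATP5F1B ran from 0.864 of scramble in pair 4 to 1.06 in pair 5. That of ATP5F1A ran from 0.899 in pair 4 to 1.28 in pair 3. Each of the 5 client genes had pairs on both sides of 1.

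The nuclear subunits as a whole lay on both sides of 0. All 17 listed were measured, 8 with a log2 fold change below 0 and 9 above, with a median of 0.0035 against -0.01 over all genes. They ranged from -0.16 for ATP5MK to 0.13 for ATP5MG, both small membrane subunits. In both limma fits 0 of 17 passed, with batch as a term 0 had an unadjusted p under 0.05, and 0 were lower or higher in all 6 pairs. Without pair 3, 9 were below 0 and 8 above.

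The mitochondrially encoded subunits lay lower in miR-28 libraries, as did the share of reads from the mitochondrial genome as a whole, which was lower in 6 of 6 pairs. The part of that wider difference in the values of these subunits was not tested. MT-ATP6 averaged 1815 ± 478 CPM in miR-28 and 2530 ± 1046 CPM in scramble libraries, and MT-ATP8 averaged 397.9 ± 107 CPM in miR-28 and 563.6 ± 241 CPM in scramble libraries (SD, n = 6 each). Their log2 fold changes were -0.43 (SE 0.205) and -0.45 (SE 0.213), lower in 6 of 6 pairs, and the groups overlapped in both. The difference was widest in pair 3, at -0.89 for MT-ATP6 and -0.96 for MT-ATP8, where the scramble library held 4424 CPM of MT-ATP6. Without pair 3 the log2 fold changes were -0.34 and -0.35. Neither passed in either limma fit. Reads shared with nuclear copies of these genes were not examined.

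**Figure D3:**
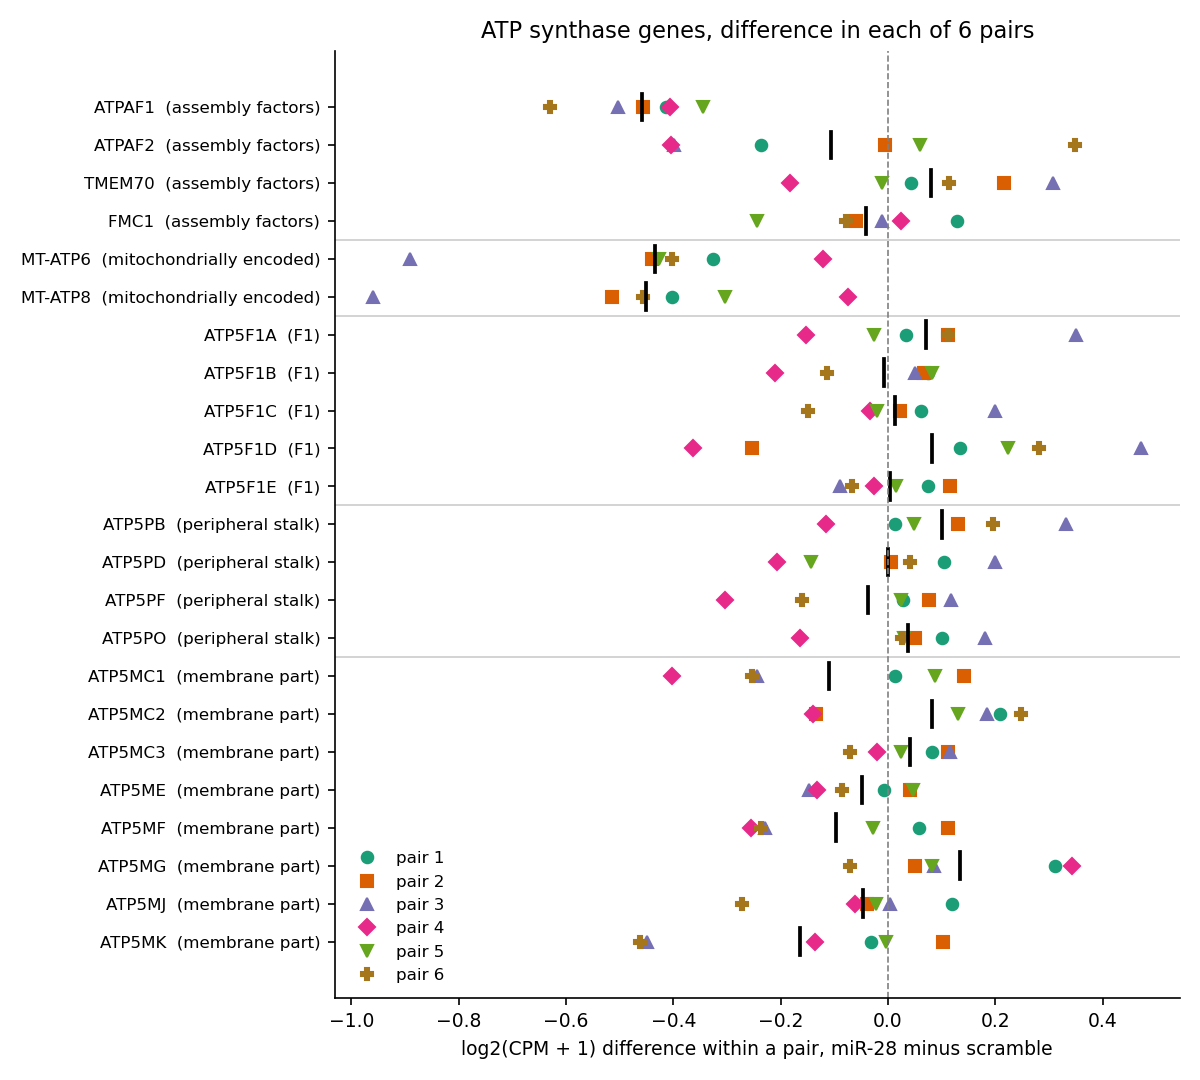
Difference in log2(CPM + 1) within each of 6 pairs, miR-28 minus scramble (horizontal axis), for the assembly factors and subunits of the ATP synthase (rows), with 1 symbol per pair and a bar for the mean. All 6 symbols of ATPAF1 lie between -0.63 and -0.35, those of MT-ATP6 and MT-ATP8 are all below 0 over a wider range, and each nuclear subunit has pairs on both sides of 0.

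Other genes around the enzyme mostly had a log2 fold change above 0, and the lists differed in how far this held without pair 3. All 5 of the inhibitor and other factors, among them ATP5IF1, which blocks the enzyme when it runs in reverse, had a log2 fold change above 0, with a median of 0.09. Without pair 3 only 2 of the 5 were above 0. Of the 4 carriers that bring in phosphate and exchange ADP for ATP, 3 were above 0, led by the ADP and ATP carriers SLC25A6, at 0.47 (SE 0.446), and SLC25A5, at 0.26 (SE 0.283). Both were higher in 5 of 6 pairs, with a median pair difference of 0.42 for SLC25A6 and 0.08 for SLC25A5. Both were widest in pair 3 and were smaller without pairs 3 and 6, at 0.14 for SLC25A6 and 0.02 for SLC25A5. Without pair 3 all 4 carriers were above 0, with a median of 0.10 against 0.17 over all pairs. In limma 0 of these 9 genes passed in either fit.

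Assembly factors of the other respiratory complexes were measured for comparison. Of 53 genes that help to build complexes I to IV, all of them in the table, 23 had a log2 fold change below 0 and 30 above, with a median of 0.03 against -0.01 over all genes. The lowest was COX20, a chaperone of the complex IV subunit COX2, with 38.04 ± 5.82 CPM in miR-28 and 45.97 ± 7.51 CPM in scramble libraries, and was lower in 6 of 6 pairs, at a log2 fold change of -0.26 (SE 0.143). ATPAF1 lay below all 53. The highest was ACAD9, of complex I assembly, at 0.44, which was 0.02 without pairs 3 and 6. TMEM126A, also of complex I assembly, had 31.4 ± 3.92 CPM in miR-28 and 26.0 ± 1.43 CPM in scramble libraries and was higher in 6 of 6 pairs, as 2.07% of all genes were, at a log2 fold change of 0.26 (SE 0.110). In limma 0 of 53 passed in either fit, and 1 had an unadjusted p under 0.05 with batch as a term.

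By complex, complex I had 13 of 19 factors above 0, complex II 4 of 4, complex III 1 of 6 and complex IV 12 of 24. Without pair 3 these counts were 13, 1, 3 and 9. Of 14 genes listed for the transcription and maintenance of mitochondrial DNA, 12 were below 0, with a median of -0.09, and 8 without pair 3. Of 15 mitochondrial chaperones and proteases 11 were below 0, with a median of -0.06, and 13 without pair 3. In limma 0 genes of either list passed in either fit, and 0 had an unadjusted p under 0.05 with batch as a term.

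**Figure D4:**
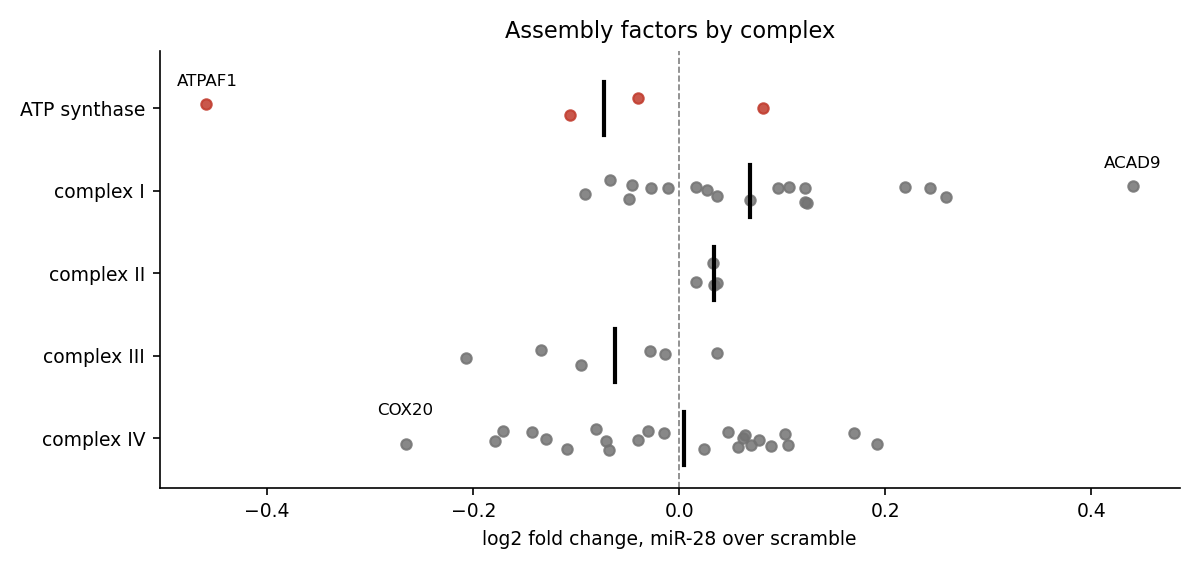
Log2 fold change of miR-28 over scramble (horizontal axis) of the assembly factors of the ATP synthase and of complexes I to IV (rows), 1 point per gene with vertical scatter and a bar for the median of each complex. ATPAF1, at -0.46, lies below the other 3 factors of the ATP synthase and below all 53 factors of the other complexes, of which COX20 is lowest at -0.26.

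The members differed in how they varied from pair to pair. TMEM70 measured 17.2 to 27.0 CPM in the 6 libraries of pairs 3, 4 and 6 and 33.6 to 40.9 CPM in those of pairs 1, 2 and 5, with means of 21.8 and 38.1 CPM. ATPAF2 measured 6.54 to 11.2 CPM in pairs 3, 4 and 6 and 11.05 to 13.6 CPM in pairs 1, 2 and 5, with means of 8.97 and 12.2 CPM and a narrow overlap. ATPAF1, with means of 30.3 CPM in pairs 3, 4 and 6 and 31.6 CPM in pairs 1, 2 and 5, did not follow this division. FMC1, with means of 8.86 and 8.53 CPM in the same order, did not follow it either.

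Most subunits of the enzyme varied in the way TMEM70 did. Of the 17 nuclear subunits 14 were lower in every library of pairs 3, 4 and 6 than in any of pairs 1, 2 and 5, as was 1 of the 4 assembly factors, TMEM70, and as were 20% of all genes. ATP5MC1 was the furthest, with means of 50.7 CPM in pairs 3, 4 and 6 and 169.7 CPM in pairs 1, 2 and 5. ATP5F1B had means of 713.3 and 1213 CPM and ATP5F1A of 696.6 and 1157 CPM in the same order. ATP5F1C, ATP5MC2 and ATP5MG overlapped. The division was itself found from all genes, these among them, so it is a description with no test.

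**Figure D5:**
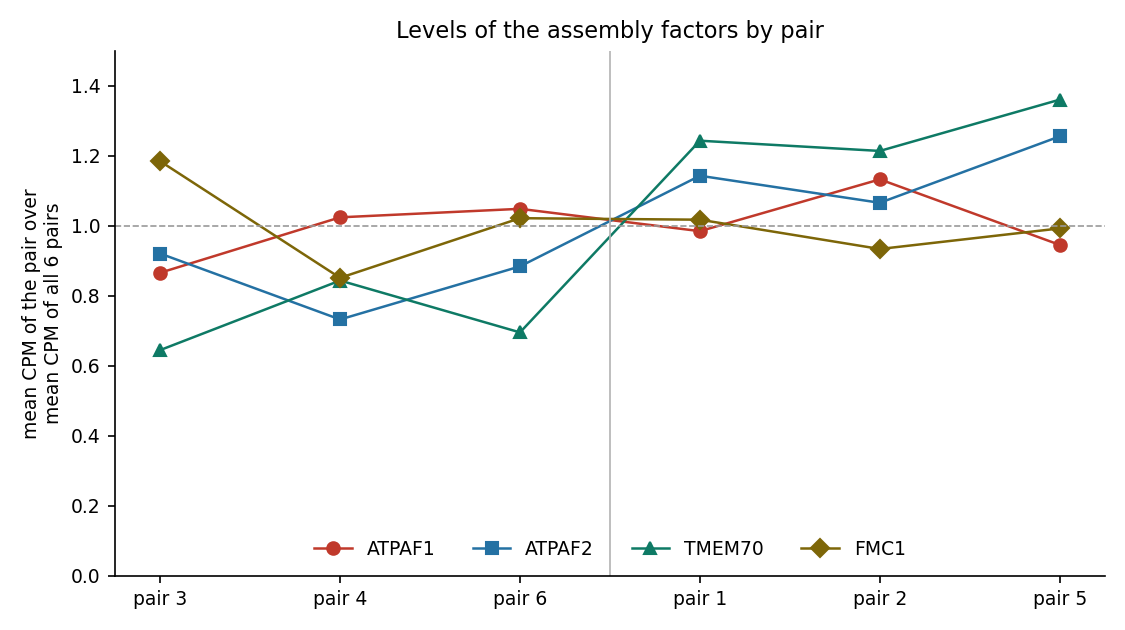
Mean CPM of both libraries of a pair divided by the mean over the 6 pairs (vertical axis, linear from 0), for each assembly factor, with pairs 3, 4 and 6 left of the line and pairs 1, 2 and 5 right of it. TMEM70 and ATPAF2 lie lower in pairs 3, 4 and 6, and ATPAF1 and FMC1 do not.

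Levels were compared between genes per kilobase of the longest coding transcript. In miR-28 libraries TMEM70 was the highest member at 15.2 ± 4.63 CPM per kilobase, followed by FMC1 at 7.07 ± 0.869, ATPAF2 at 6.54 ± 1.58 and ATPAF1 at 6.23 ± 0.584. In scramble libraries TMEM70 was highest at 14.5 ± 4.69 CPM per kilobase, followed by ATPAF1 at 8.67 ± 0.874, FMC1 at 7.30 ± 0.865 and ATPAF2 at 7.02 ± 1.32 (SD, n = 6 each). ATPAF1 thus stood last of the 4 in miR-28 libraries and second in scramble libraries, although FMC1, ATPAF2 and ATPAF1 did not differ beyond their spread in miR-28 libraries, and FMC1 and ATPAF2 did not in scramble libraries. The order depends on the length used, since per kilobase of all exons ATPAF2 had 1.84 ± 0.445 CPM in miR-28 and 1.97 ± 0.371 CPM in scramble libraries, below the other members.

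ATPAF1, ATPAF2 and TMEM70 were below the subunits that they serve, and FMC1 was compared with no subunit. Over all 12 libraries ATPAF1 averaged 7.45 CPM per kilobase of the longest coding transcript, against 523.7 for ATP5F1B. ATPAF2 averaged 6.78 against 159.3 for ATP5F1A, and TMEM70 averaged 14.9 against 179.5, 102.5 and 44.2 for ATP5MC1, ATP5MC2 and ATP5MC3. Among 10819 coding genes on this scale TMEM70 stood at the percentile 57.1, ATPAF1 at 37.0, FMC1 at 36.0 and ATPAF2 at 34.5, while ATP5F1B stood at 99.2.

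Genes that share sequence with the members bear on how their reads were counted, and no strand setting is given. An exon of FMC1 overlaps LUC7L2 and the readthrough gene FMC1-LUC7L2 on the same strand, and the readthrough gene had 79.1 CPM in miR-28 and 81.2 CPM in scramble libraries, so the division of reads that sets the FMC1 level is uncertain. ATPAF2 overlaps exons of DRC3 on the opposite strand, which had 1.48 CPM in miR-28 and 1.83 CPM in scramble libraries. ATPAF1 overlaps exons of TEX38 on the opposite strand, which was not among the measured genes. TMEM70 overlaps the pseudogene RPS20P21, which was not measured either.

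Genes with the pattern most like each member were taken by the mean absolute difference of log2(CPM + 1), centred on each gene, over the 12 libraries. For ATPAF1 they were HDLBP, an RNA-binding protein, at 0.117, STK26, a protein kinase, at 0.132 and CROT at 0.133, against a median of 0.348 over all genes. HDLBP averaged 279.7 ± 36.7 CPM in miR-28 and 337.0 ± 22.5 CPM in scramble libraries, STK26 73.7 ± 9.44 and 91.5 ± 12.1 CPM, and CROT 12.6 ± 0.846 and 15.4 ± 1.34 CPM (SD, n = 6 each). All 3 were lower in 6 of 6 pairs, at log2 fold changes of -0.28, -0.31 and -0.28, which follows from their having been picked for likeness to ATPAF1. The other members were less like ATPAF1, at 0.256 for FMC1, 0.310 for ATPAF2 and 0.400 for TMEM70.

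For TMEM70 the closest were TRMO at 0.0556, XRN2, a nuclear exonuclease, at 0.0612 and XPO1, the nuclear export receptor, at 0.0636, against a median of 0.423. For ATPAF2 they were AKNA, XYLT2 and AMPD2, at 0.0697 to 0.0812, and for FMC1 RPL9, TIAL1 and ZNF749, at 0.0726 to 0.0760. The closest genes of TMEM70 were thus nearer to it than those of ATPAF1 were to ATPAF1. These are descriptions over 12 libraries that share pairs and batches.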

How the data were processed

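The deposited table holds a signal for each gene and library, never negative, with no replicates pooled. Per the submitters' processing notes, CASAVA 1.8.2, cutadapt, RSEM 1.2.3 and GRCh38 were used; these sources name no annotation release, filter on low genes or scaling. In each library 100% of values were whole multiples of 1 step within 0.01 reads, and the implied factors equalled TMM factors, so the values are CPM scaled by TMM, and 3 reads are worth 0.0830 to 0.181 CPM. Every gene reached at least 1.15 CPM in a library. The sources do not say how the expected counts of RSEM became whole.

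Symbols matched 12528 of 12725 genes, and 12595 were in GENCODE release 29, which may differ from the authors' annotation. Limma 3.58.1 in R 4.3.3 was run with trend on log2(value + 1) over all genes, with library batch and group, and p-values were adjusted by Benjamini-Hochberg with a threshold of 0.05. On this scale the changes of low genes are understated. The design allowed for counts or normalized values, and the latter applied. Batch and XENO were fitted on pair means, and fold changes without pair 3 are means of the pair differences. edgeR 4.0.16 and DESeq2 1.42.0 on the recovered reads were alternatives, with the pseudocount, filter, scaling, terms and libraries. Fits were tested on simulated data.

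The labels pair the libraries. Deviations from the group means correlated by 0.697 to 0.882 within pairs, and 12 of 12 libraries correlated best with their own partner. Both fits are therefore given where calls are counted. SEs of miR-28 fold changes are from the fit with batch as a term unless the block is named, and that fit leaves out the pairing. The fit of the interaction leaves out the pairing as well. The median SE over all genes was 0.211 with batch as a term and 0.103 with the pair as a block.

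The members and lists were chosen with earlier results of these data known. Named genes are the members, the 3 genes most like each, and up to 4 of each list with a mean of 5 CPM or more and the largest absolute fold change. The client genes, genes with like 3′ UTR windows and genes whose groups do not overlap were added after values had been seen.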

Additional observations from a re-analysis of the deposited data

Results flagged for a closer look

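Of 33 groups of 6 values looked at, in 11 genes, 1 held a value far from the rest, and chance gives about 1 in 20. ATP5MC2, one of the genes for subunit c, measured 146.0 CPM in the miR-28 library of pair 4, against 203.4 to 235.9 CPM in the other 5 miR-28 libraries. No value of ATPAF1, ATPAF2, TMEM70 or FMC1 stood apart from its group in this way.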

How the results depend on the processing

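For miR-28 over scramble, limma with batch called 2 genes, neither a member, with 42 at an unadjusted p under 0.05. It called 0 with a pseudocount of 5, with a mean of 5 or more, with plain depth scaling, in edgeR (45 at an unadjusted p under 0.05), in batch 1 or batch 2 alone, without pairs 3 and 6, with means per transduction, and without any 1 pair or library (17 to 104 at an unadjusted p under 0.05). With the pair as a replicate block limma called 3 genes and edgeR, an alternative chosen after seeing the data, called 1. ATPAF1 kept a log2 fold change of -0.50 to -0.41 in 33 of 33 alternatives, with an adjusted p of 0.0818 (DESeq2) to 1, and ATPAF2, TMEM70 and FMC1 kept their side of the threshold in all 33, with signs that were not constant. Neither the block nor another tool changed the call of a member. For XENO 2 over XENO 1 limma called 0 genes and 1 to 481 without 1 pair: 1 without pair 1 or 2, 50 without pair 4, 481 without pair 5 and 2 without pair 6, each fit resting on 1 residual degree of freedom; the cause was not tested. Batch and the miR-28 effect by batch gave 0 calls throughout. Counting error per library was at most 8.61% in ATPAF2, 8.14% in FMC1, 5.49% in TMEM70 and 4.49% in ATPAF1. The largest SE of a member was that of TMEM70 with batch as a term, at 0.259. With the pair as a block it was that of ATPAF2, at 0.120. The part of counting error in these SEs was not tested.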
